A study of Homo sapiens with 6 samples.

Results

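Transcript levels of 10 genes of the KLF family (KLF2, KLF3, KLF4, KLF6, KLF7, KLF9, KLF10, KLF11, KLF13 and KLF16) were followed in MV4;11 cells treated with cortistatin A. They are part of the family, and 8 other KLF genes are described separately below. The members were chosen with earlier results of these data known, while the rule for reading each gene uses none of its changes. All 10 were measured, out of 19775 genes in the table. MV4;11 cells are an established human line from an acute leukaemia of the myeloid lineage and carry an MLL-AF4 fusion gene. The treated group received 25 nM cortistatin A, a steroidal alkaloid that inhibits the Mediator kinases CDK8 and CDK19, for 3 h (3 arrays), and the control group received the solvent DMSO for 3 h (3 arrays). Each array gives 1 log2 signal per probe set, a group of short probes against 1 transcript, summarised by the submitters with RMA (robust multi-array average). All 6 arrays hold the same line, grown in the same medium and plated in triplicate wells. The labels do not say that the wells came from separate cultures, so p-values measure the spread between these samples only, which may be technical.

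The KLF proteins are transcription factors that bind GC-rich and CACCC sequences through zinc fingers at their carboxyl end. Their amino-terminal parts differ and sort them by partner. KLF2, KLF4, KLF6 and KLF7 are mainly known as activators that work with acetyltransferases, KLF3 recruits the corepressor CtBP, and KLF9, KLF10, KLF11, KLF13 and KLF16 recruit the corepressor SIN3. In myeloid cells KLF4 is known to promote monocyte differentiation, KLF2 to restrain monocyte activation and KLF6 to favour inflammatory gene expression.

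The labelled cell type was checked against markers. All 7 measured myeloid leukaemia markers lay above the median of the array, with summed log2 signals of 57.7 to 58.4 in cortistatin A and 57.3 to 58.0 in DMSO. Of these 7, 3 had an unadjusted limma p under 0.05 (CEBPA and MEIS1 higher, FLT3 lower), against 12.6% of all genes, and CEBPA passed limma over all genes at a log2 change of 0.42, against 0.582% of all genes called. That call ended with replicate number as a block, with the control index in the fit and without cortistatin A replicate 1 or 3 or DMSO replicate 1 or 2. In each of these fits 0 genes passed. Of 7 measured markers of T, B, erythroid, epithelial and fibroblast cells 5 lay above the array median as well, and 0 had an unadjusted limma p under 0.05. Their summed log2 signal was 28.1 to 29.2 in cortistatin A and 28.4 to 28.8 in DMSO. The sums do not identify the cell type, because probe sets differ in their response. In cortistatin A the myeloid markers SPI1 (4.36) and MPO (5.21) read below the fibroblast marker COL1A1 (6.12). Across genes, pairs of cortistatin A arrays correlated at r = 0.9975 to 0.9979, pairs of DMSO arrays at 0.9975 to 0.9977 and mixed pairs at 0.9969 to 0.9974, so every pair within a group was above every mixed pair. Precision is limited by the count of arrays. The 3' minus 5' log2 signal of the beta-actin control was 1.95 ± 0.11 in cortistatin A and 1.75 ± 0.06 in DMSO (SD, n = 3; two-sided exact permutation p = 0.1, the smallest possible here), with the groups apart. For the GAPDH control it was 1.14 ± 0.03 in cortistatin A and 1.08 ± 0.04 in DMSO (two-sided exact permutation p = 0.3), with overlapping groups. Over all 21 control transcripts it was 0.63 ± 0.03 in cortistatin A and 0.59 ± 0.05 in DMSO (two-sided exact permutation p = 0.5). The part of the beta-actin difference in the results was not tested. With the index of all control transcripts added to the fit, KLF13 stood at 0.29, KLF11 at -0.14 and KLF4 at 0.46. That index is an average over 21 transcripts, so this fit does not adjust for the beta-actin difference itself.

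No KLF member passed the test used. Of the 10 members 0 passed limma at an adjusted p under 0.05, against 0.582% of all genes tested, and 2 had an unadjusted p under 0.05 (KLF13 and KLF11), against 12.6% of all genes. That last count was 1 without cortistatin A replicate 1 or without DMSO replicate 2, 3 without cortistatin A replicate 2, 0 without the _x_at and _s_at types and 4 with trended and robust moderation. The cortistatin A and DMSO values did not overlap for 3 members (KLF13 and KLF3 higher, KLF11 lower), against 19.4% of all genes. A total of 5 members stood above 0 and 5 below it, with a median log2 change of 0.003, against 0.006 over all genes. The median size of the change without its sign was 0.11 for the members and 0.08 for all genes. For 9 of the 10 members the 95% confidence interval of the change excluded a 1.5-fold difference in either direction, and KLF4 was the exception. These intervals bound the signal of each gene's brightest probe set, not the transcript itself. KLF2 (4.48 in cortistatin A, 4.45 in DMSO) and KLF7 (4.84 and 4.86) read below the B cell marker CD79A (5.14 and 5.10). Fitted as a probe set, the dimmest of KLF13 had a 95% interval of 0.99-fold to 1.83-fold. In a bulk sample fewer cells of a type and less RNA per cell cannot be told apart.

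The arrays gave 32 probe sets for the members, between 1 and 5 for a gene, and the brightest was taken as the main one. Probe sets of the _s_at type can detect several transcripts and those of the _x_at type can cross-hybridise. The main probe sets of all 10 members lay above the median of all probe sets (3.748 on the log2 scale). Probe sets above this median are called bright and those at or below it dim. Brightness is not compared between genes, because probe sets differ in their response. The replicate SD on the log2 scale was between 0.04 and 0.23 in cortistatin A and between 0.01 and 0.28 in DMSO.

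**Figure D1:**
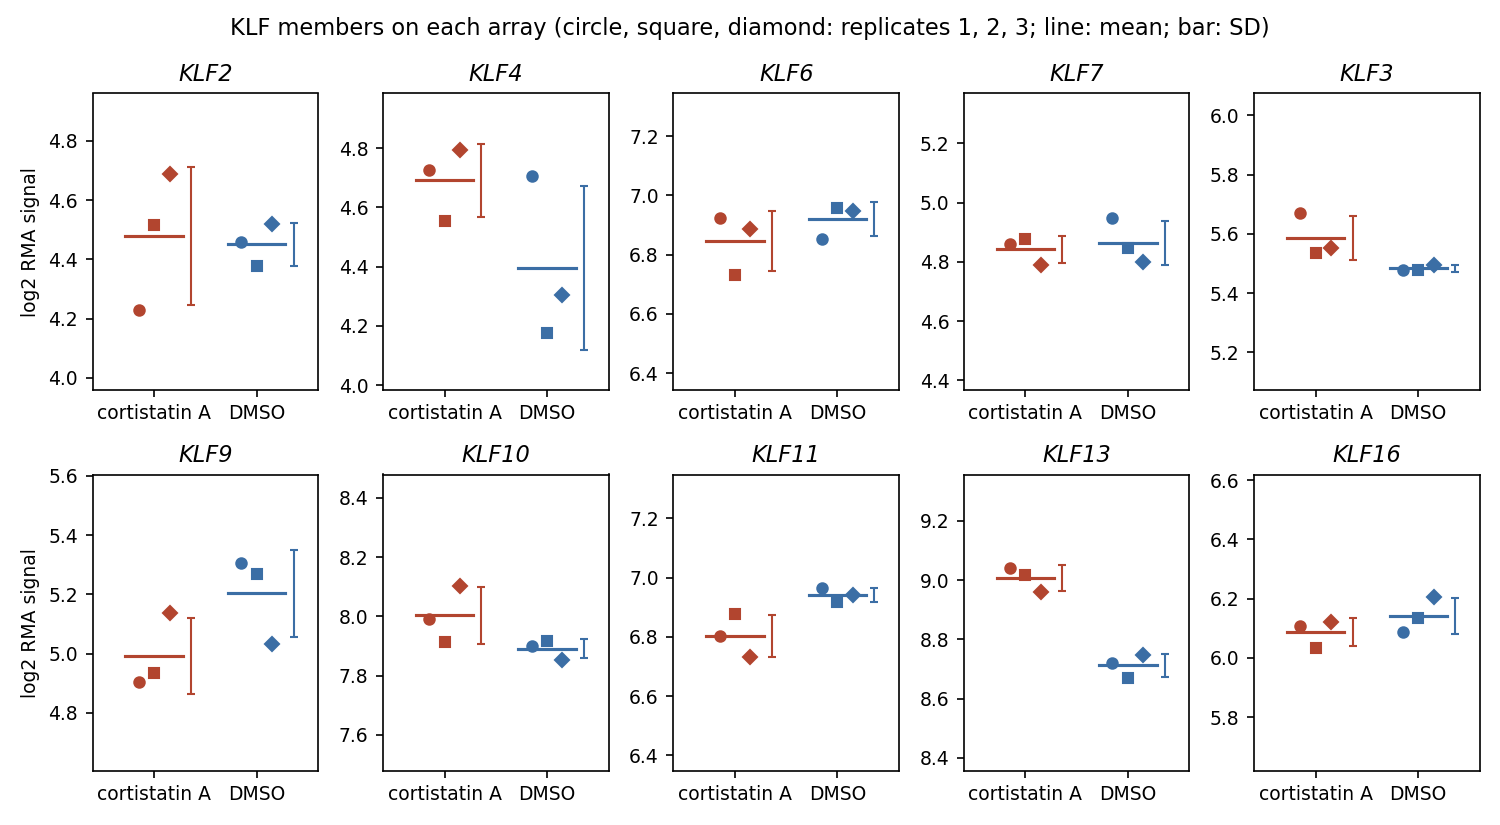
Log2 RMA signal of the main probe set of each KLF member (y axis, spanning 1 log2 unit in every panel) on the 3 cortistatin A and the 3 DMSO arrays. Symbols are replicates, lines are means and bars are the SD; the groups are apart for KLF3, KLF11 and KLF13 and overlap for the other 7 members.

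Promoter sequences of 3 members are shown because KLF13 and KLF11 had the smallest p and opposite signs, and because the transcripts of the MEF2 factors that act on KLF2 were measured too. They are the 250 bases before the RefSeq start site in GRCh38.p14, 5′ to 3′. They lie at chr15:31326585-31326834 on the plus strand for KLF13, at chr2:10043579-10043828 on the plus strand for KLF11 (the upstream one of its listed starts) and at chr19:16324576-16324825 on the plus strand for KLF2. Capitals mark GGGCGG and CACCC on either strand and, in KLF2, the match to the MEF2 motif, which is the run of 10 bases that opens with C and closes with G.
KLF13: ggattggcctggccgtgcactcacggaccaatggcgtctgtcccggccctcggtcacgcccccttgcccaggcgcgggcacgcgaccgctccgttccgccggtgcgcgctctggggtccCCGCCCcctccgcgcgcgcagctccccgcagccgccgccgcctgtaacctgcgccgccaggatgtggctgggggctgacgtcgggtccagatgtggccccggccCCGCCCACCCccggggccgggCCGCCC
KLF11: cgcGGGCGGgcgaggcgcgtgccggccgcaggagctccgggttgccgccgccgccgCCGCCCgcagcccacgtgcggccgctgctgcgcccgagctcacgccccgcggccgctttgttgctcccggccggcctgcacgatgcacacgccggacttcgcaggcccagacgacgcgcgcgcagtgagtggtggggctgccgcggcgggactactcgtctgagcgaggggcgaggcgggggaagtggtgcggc
KLF2: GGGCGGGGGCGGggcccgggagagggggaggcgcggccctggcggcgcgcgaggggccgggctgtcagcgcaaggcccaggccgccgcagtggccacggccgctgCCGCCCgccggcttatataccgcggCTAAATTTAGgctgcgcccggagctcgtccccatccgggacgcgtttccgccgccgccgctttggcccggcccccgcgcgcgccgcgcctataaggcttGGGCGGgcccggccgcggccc
RefSeq starts were found for 8 members, with 12 windows of 300 bases (250 before and 50 after the start). KLF3 and KLF10 are named only. GGGCGG, the GC box, was present in 8 of the 12 windows, from 7 of the 8 genes, and in 45% of all 35116 promoter windows. CACCC, the box after which KLF binding sites are named, was present in 5 of the 12 windows, from KLF7, KLF11 and KLF13, against 59.9% of all windows. The CACCC of KLF13 overlaps a GGGCGG match on the other strand. The MEF2 motif was found in the KLF2 window alone among the 12, against 2.99% of all windows. A match is a description of the letters and does not show binding.

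KLF13, which activates the chemokine gene CCL5 in T cells, had the smallest p of the 10 members. Its log2 signal was 9.04, 9.02 and 8.96 in cortistatin A, against 8.72, 8.67 and 8.75 in DMSO. All 3 treated arrays lay above all 3 control arrays. The means were 9.01 ± 0.04 in cortistatin A and 8.71 ± 0.04 in DMSO (SD, n = 3 arrays per group). The log2 change was 0.29 ± 0.05 (SE; 95% interval 0.17 to 0.42), or 1.23-fold, with a limma adjusted p = 0.0837. It passed when dim genes were left out (limma adjusted p = 0.0237) and when variances were moderated with a trend and robustly (limma adjusted p = 0.000401). Over all alternatives its adjusted p was 0.000401 to 0.818.

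The other probe sets of KLF13 did not all move with the main one. The second brightest, of the _s_at type, read 6.52, 6.67 and 6.71 in cortistatin A, against 6.49, 6.34 and 6.50 in DMSO, a change of 0.19 ± 0.08. The dimmest read 3.91, 4.12 and 3.89 in cortistatin A, against 3.09, 3.72 and 3.81 in DMSO, a change of 0.43 ± 0.19. In both of these the groups did not overlap. The remaining one stood at -0.12 ± 0.15 with overlapping groups. It and the dimmest are the KLF13 probe sets outside the _x_at and _s_at types, and they go opposite ways. Where only such probe sets were kept, the sign of KLF13 turned because the brighter of the pair was read.

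KLF11, the TGF-beta-inducible early gene that is the closest relative of KLF10, stood on the other side. Its log2 signal was 6.80, 6.88 and 6.73 in cortistatin A, against 6.96, 6.92 and 6.94 in DMSO. Every treated array was below every control array, by a narrow margin for cortistatin A replicate 2. The change was -0.14 ± 0.06 (SE, n = 3 arrays per group; 95% interval -0.27 to -0.005), with a limma adjusted p = 0.378. Its other probe set was dim and stood at 0.07 ± 0.09, and with the mean of both the change was -0.04.

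KLF10, which TGF-beta induces as an early gene and which dampens cell growth, has 1 single-gene probe set. It read 7.99, 7.91 and 8.10 in cortistatin A, against 7.90, 7.92 and 7.85 in DMSO. The groups overlapped through cortistatin A replicate 2. The change was 0.11 ± 0.06 (SE, n = 3 arrays per group), with a limma adjusted p = 0.526.

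KLF9, which glucocorticoids and thyroid hormone induce, read 4.90, 4.94 and 5.14 in cortistatin A, against 5.31, 5.27 and 5.03 in DMSO. Cortistatin A replicate 3 lay above DMSO replicate 3, so the groups overlapped. The change was -0.21 ± 0.10 (SE, n = 3 arrays per group; 95% interval -0.44 to 0.02), with a limma adjusted p = 0.441. The other 3 probe sets above the median stood at -0.04, 0.01 and 0.21, and the mean of all probe sets gave -0.005. KLF16, a SIN3-binding relative of KLF9 and KLF13, read 6.11, 6.03 and 6.12 in cortistatin A, against 6.09, 6.13 and 6.21 in DMSO, on a probe set of the _x_at type. Its change was -0.05 ± 0.06 (limma adjusted p = 0.746), and its other bright probe set stood at 0.07 ± 0.06. Of the 5 SIN3-binding members 2 stood above 0 and 3 below it, between -0.21 and 0.29.

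KLF4, a driver of monocyte differentiation and a reprogramming factor, had the largest log2 change of the activators. It read 4.73, 4.55 and 4.79 in cortistatin A, against 4.71, 4.18 and 4.30 in DMSO. DMSO replicate 1 stood among the treated arrays, and DMSO replicates 2 and 3 lay below all of them. The change was 0.30 ± 0.14 (SE, n = 3 arrays per group; 95% interval -0.04 to 0.64), with a limma adjusted p = 0.458. Without DMSO replicate 1 the change was 0.45 (limma adjusted p = 0.249), without DMSO replicate 2 it was 0.19, and with the control index in the fit it was 0.46 (limma adjusted p = 0.273). The other KLF4 probe set was dim and stood at -0.03 ± 0.21.

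KLF2, known for keeping lymphocytes and monocytes quiescent, read 4.23, 4.52 and 4.69 in cortistatin A, against 4.46, 4.38 and 4.52 in DMSO. The treated arrays spread around the control arrays on both sides. Its change was 0.03 ± 0.12 (SE, n = 3 arrays per group; 95% interval -0.25 to 0.31), with a limma adjusted p = 0.947. The sign turned without cortistatin A replicate 3 (-0.08), without DMSO replicate 2 (-0.01) and without the _x_at and _s_at types (-0.005).

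KLF6, a growth factor-inducible member, read 6.92, 6.73 and 6.89 in cortistatin A, against 6.85, 6.96 and 6.95 in DMSO. Its change was -0.07 ± 0.07 (SE, n = 3 arrays per group), with a limma adjusted p = 0.721. Among its 4 other probe sets, all above the median, the fourth brightest read 4.96, 5.21 and 5.01 in cortistatin A, against 5.26, 5.23 and 5.24 in DMSO. These groups did not overlap, at a change of -0.18 ± 0.08, while the other three stood at 0.01, -0.03 and -0.20 with overlapping groups. KLF7, known for its part in neuronal differentiation, read 4.86, 4.88 and 4.79 in cortistatin A, against 4.95, 4.85 and 4.80 in DMSO. Its change was -0.02 ± 0.06 (limma adjusted p = 0.916), and its other probe sets were all dim and between -0.05 and 0.27. The sign of KLF7 turned under 4 alternatives.

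KLF3, the CtBP-binding repressor, read 5.67, 5.54 and 5.55 in cortistatin A, against 5.48, 5.48 and 5.49 in DMSO. The treated arrays were all above the controls. The change was 0.10 ± 0.06 (SE, n = 3 arrays per group; 95% interval -0.03 to 0.24), with a limma adjusted p = 0.508. Its other bright probe sets gave opposite signs. The second brightest read 4.26, 4.32 and 4.32 in cortistatin A, against 4.07, 4.07 and 3.98 in DMSO, a change of 0.27 ± 0.06. The third brightest, of the _s_at type, read 4.09, 4.10 and 3.79 in cortistatin A, against 4.18, 4.29 and 4.22 in DMSO, a change of -0.23 ± 0.10. In each of the 3 bright probe sets of KLF3 the groups did not overlap, so the direction for this gene rests on the probe set read.

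Fitted as probe sets, 0 of the 32 passed limma at an adjusted p under 0.05, against 0.0513% of all 54613, and 3 had an unadjusted p under 0.05, against 10.3%. The groups did not overlap for 8 of the 32, against 16.5% of all probe sets. These 8 belonged to KLF3 and KLF13 with 3 each, and to KLF6 and KLF11.

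**Figure D2:**
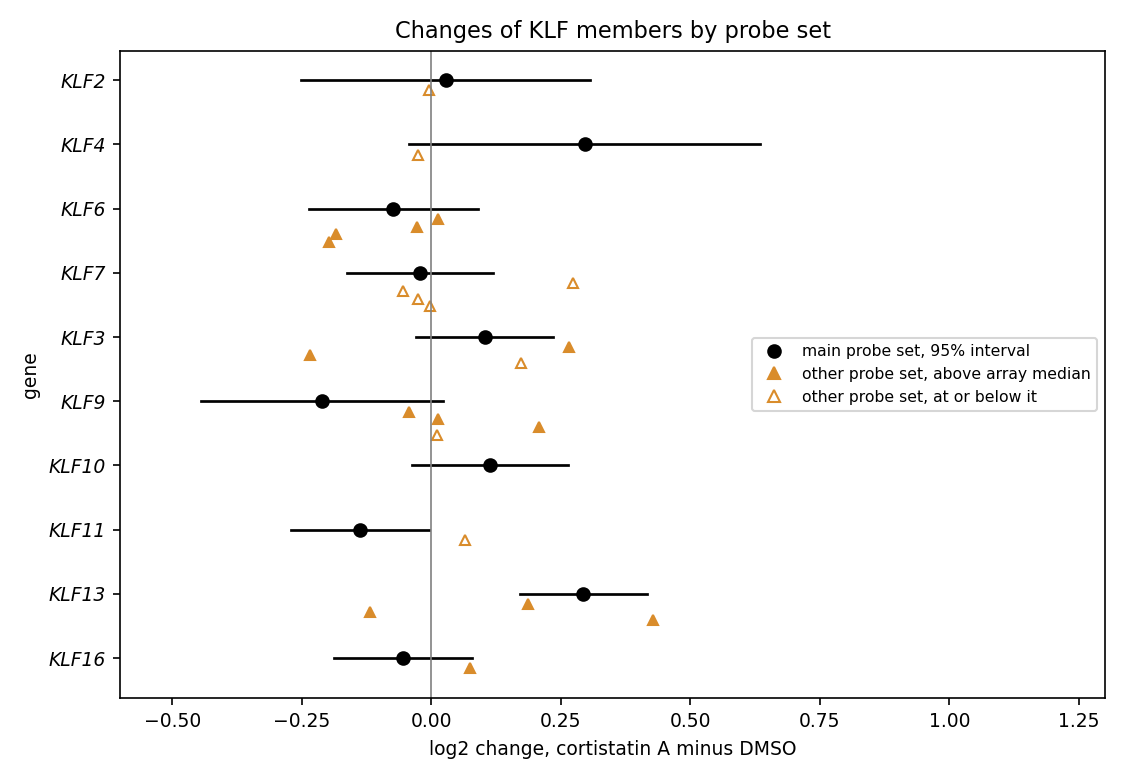
Log2 change, cortistatin A minus DMSO (x axis), of every single-gene probe set of the KLF members (y axis). Black points with lines are the main probe sets with their 95% interval, filled triangles are other probe sets above the array median and open triangles those at or below it. The main probe set of KLF13 lies at 0.29 with its interval above 0, and the filled triangles of KLF3 lie on both sides of 0.

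The remaining family genes were mostly dim. Of 8 other KLF genes 7 were measured, 2 of them above the array median (KLF5 and KLF15). Of these 0 passed, against 0.582% of all genes, and 0 had an unadjusted limma p under 0.05, against 12.6%. The median log2 change was -0.03. The 3 with the smallest p were KLF17 (-0.14), KLF14 (-0.12) and KLF5 (0.13), with limma adjusted p from 0.578 to 0.720. KLF5 is an activator of epithelial cells, and KLF14 a SIN3-binding relative of KLF16.

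The SP factors share the zinc fingers of the KLF proteins and bind the GC box. Of 9 listed genes 8 were measured, and 7 stood below 0, against 9410 of all 19775 genes. The median log2 change was -0.13, against 0.006 over all genes. None passed limma over all genes, against 0.582% of all genes called, and 3 had an unadjusted limma p under 0.05, against 12.6%. SP1, the general activator of GC-box promoters, read 8.21, 8.22 and 8.08 in cortistatin A, against 8.44, 8.39 and 8.39 in DMSO. The groups did not overlap, at a change of -0.24 ± 0.06 (SE, n = 3 arrays per group; limma adjusted p = 0.189). Its 3 other probe sets stood at -0.14, -0.34 and -0.46, and the groups did not overlap in any of them. The last of these was dim, with its highest treated array at 2.660 and its lowest control array at 2.664. SP4 stood at -0.17 ± 0.05 (limma adjusted p = 0.215) and SP5, which was dim, at -0.33 ± 0.10 (limma adjusted p = 0.244). With trended and robust moderation SP1 passed at a limma adjusted p = 0.0103 and SP4 at 0.0449. The mean of both probe sets put SP4 at -0.05, where the second probe set was dim and stood at 0.06.

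The cofactors through which KLF proteins act were all 11 measured. Of these 0 passed, against 0.582% of all genes, and the median log2 change was -0.06. An unadjusted limma p under 0.05 was found for 3, against 12.6% of all genes. The groups did not overlap for 5 of the 11 (EP300, CREBBP, CTBP1 and CTBP2 lower, SAP30 higher), against 19.4% of all genes. EP300 and CREBBP encode acetyltransferases that work with the activating members. EP300 read 7.44, 7.41 and 7.46 in cortistatin A, against 7.67, 7.64 and 7.71 in DMSO. Its change was -0.23 ± 0.05 (SE, n = 3 arrays per group; limma adjusted p = 0.131), and its other probe set stood at -0.20 ± 0.07. EP300 passed when dim genes were left out (limma adjusted p = 0.0382) and with trended and robust moderation (limma adjusted p = 0.00954). CREBBP stood at -0.17 ± 0.05 (limma adjusted p = 0.267) with the main probe set. Its second brightest stood at -0.18 ± 0.08, also with the groups apart. The third brightest stood at 0.01 with overlapping groups, and the dim one at 0.36 ± 0.11 with the groups apart. The 4 probe sets of CREBBP averaged to 0.005. SAP30, a subunit of the SIN3 complex, stood at 0.18 ± 0.05 (limma adjusted p = 0.250) on a probe set of the _x_at type, and its other bright probe set at -0.09. It stood at 0.02 without the _x_at and _s_at types and at 0.001 with the mean of all probe sets. SIN3A itself stood at -0.08 and the corepressor genes CTBP1 and CTBP2 at -0.06 and -0.08.

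Regulators of KLF levels include the kinases MAP2K5 and MAPK7, which act through MEF2 factors on KLF2 and KLF4, and ubiquitin ligases that remove KLF proteins. All 12 were measured, 0 passed, against 0.582% of all genes, and the median log2 change was -0.05. An unadjusted limma p under 0.05 was found for 4 of them, against 12.6% of all genes. MEF2C, a factor of myeloid and lymphoid cells, read 7.047, 6.9997 and 7.001 in cortistatin A, against 6.49, 6.71 and 6.45 in DMSO. Its change was 0.47 ± 0.08 (SE, n = 3 arrays per group; limma adjusted p = 0.0720), and its other bright probe set stood at 0.33 ± 0.08. MEF2A read 5.60, 5.64 and 5.71 in cortistatin A, against 6.05, 5.91 and 5.92 in DMSO. It stood on the opposite side at -0.31 ± 0.06 (limma adjusted p = 0.118), and its other bright probe sets at -0.27 and -0.11. The ligase gene SMURF1 stood at -0.25 ± 0.05 (limma adjusted p = 0.105). MEF2C and MEF2A passed both when dim genes were left out and with trended and robust moderation, and SMURF1 when dim genes were left out (limma adjusted p = 0.0290). The mean of its 5 probe sets put SMURF1 at -0.06. Its other bright probe sets stood at -0.09 and -0.14, and its dim ones at 0.09 and 0.11, all with overlapping groups. On the same arrays KLF2, whose promoter holds the MEF2 motif printed above, stood at 0.03 and KLF4 at 0.30, and neither passed.

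Genes described as targets of KLF members gave the only call among the lists of related genes, leaving the cell type markers aside. Of 12 listed genes 11 were measured, 1 passed (0.445% of all genes were called higher), and the median log2 change was 0.10. THBD, which encodes thrombomodulin and is activated by KLF2 and KLF4 in endothelial cells, rose with cortistatin A. It read 7.94, 7.89 and 8.05 in cortistatin A, against 7.39, 7.37 and 7.39 in DMSO, with all treated arrays above all controls. The change was 0.58 ± 0.06 (SE, n = 3 arrays per group), with a limma adjusted p = 0.0198. Its other probe sets, both above the median, stood at 0.57 ± 0.08 and 0.82 ± 0.15. The call ended without any 1 of the 6 arrays (limma adjusted p = 0.0756 to 0.113) and with the control index in the fit (limma adjusted p = 0.105). It also ended with replicate number as a block (limma adjusted p = 0.177), without the _x_at and _s_at types (0.0539) and over all probe sets (0.0539). The change was between 0.54 and 0.66 over all alternatives.

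Other targets did not pass in the fit as reported. CDKN1A, the cell-cycle inhibitor gene that KLF4 and KLF6 activate, read 6.48, 6.57 and 6.58 in cortistatin A, against 6.92, 6.84 and 6.89 in DMSO. It stood at -0.34 ± 0.05 (SE, n = 3 arrays per group; limma adjusted p = 0.0679), with the groups apart, and was named after its values had been seen. CDKN1A passed when dim genes were left out (limma adjusted p = 0.0187) and with trended and robust moderation (limma adjusted p = 0.00329). CCL5, the target of KLF13 in T cells, stood at 0.13 ± 0.08 (limma adjusted p = 0.578). The lymphocyte targets of KLF2, ITGB7 and S1PR1, stood at 0.06 and 0.07, and S1PR1 was dim.

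**Figure D3:**
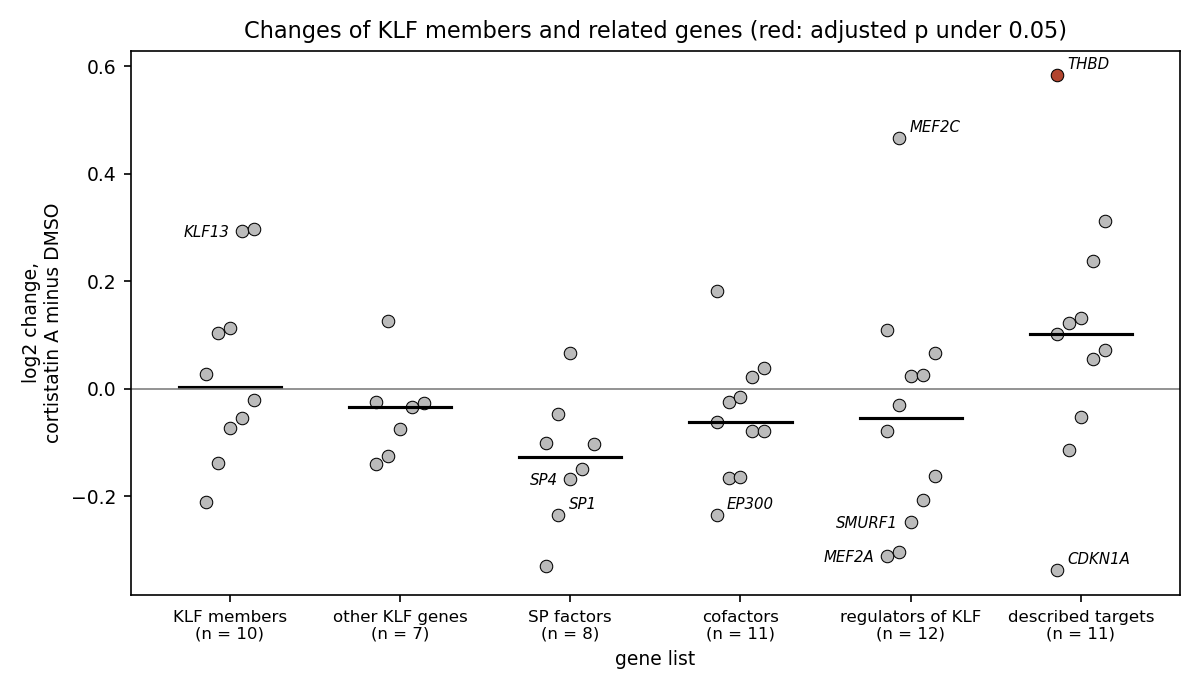
Log2 change, cortistatin A minus DMSO (y axis), of each measured gene of the KLF members and of 5 lists of related genes (x axis). Points are genes, lines are list medians and red marks a limma adjusted p under 0.05; THBD at 0.58 is the only red point, and 7 of the 8 SP factors lie below 0.

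For KLF13, KLF9, KLF11, KLF4, KLF7 and KLF16 the mean of all probe sets lay outside the range given by leaving out any 1 array. Leaving out any 1 array gave KLF13 changes of 0.27 to 0.32, KLF9 changes of -0.30 to -0.16 and KLF11 changes of -0.17 to -0.10. The mean of all probe sets gave 0.20 for KLF13, -0.005 for KLF9 and -0.04 for KLF11. For KLF4 leaving out any 1 array gave 0.19 to 0.45, against 0.14 for the mean of both probe sets. The same comparison was -0.055 to 0.019 against 0.034 for KLF7, and -0.082 to -0.023 against 0.010 for KLF16.

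**Figure D4:**
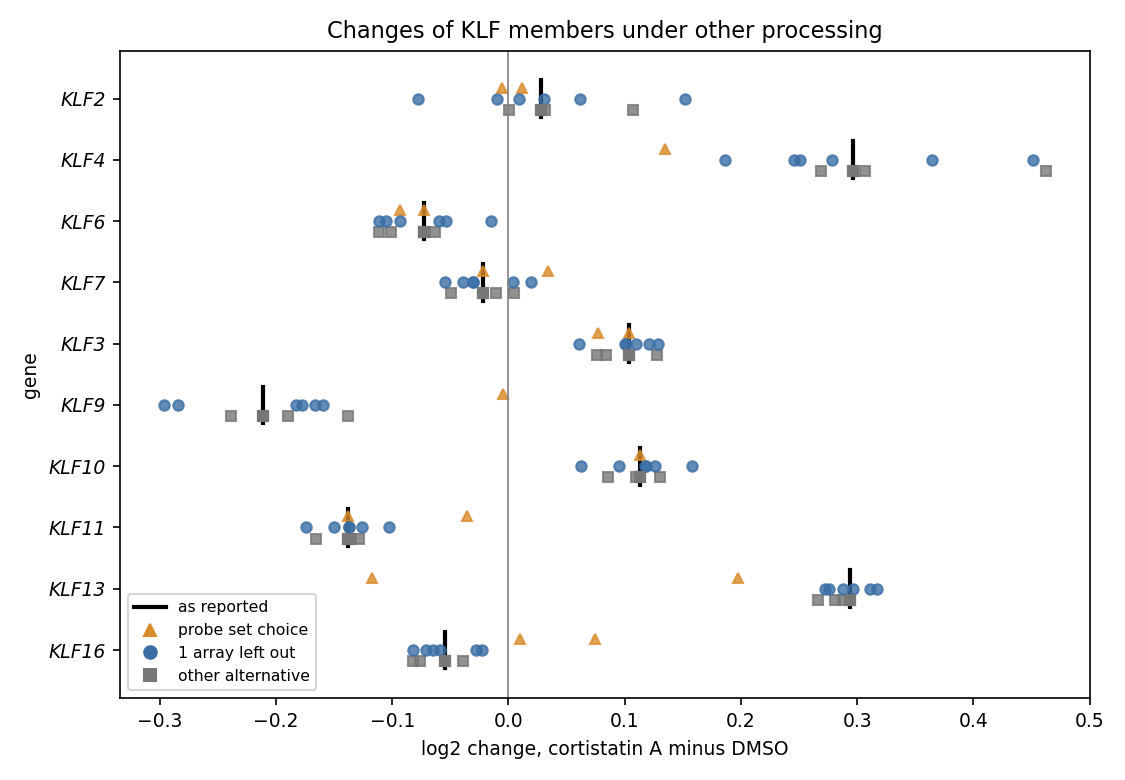
Log2 change, cortistatin A minus DMSO (x axis), of each KLF member (y axis) as reported (black bar) and under each alternative (triangles for another choice of probe set, circles for 1 array left out, squares for the rest). Circles of KLF13 sit between 0.27 and 0.32, and its triangles at 0.20 and -0.12.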

How the data were processed

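Total RNA of the 6 samples was hybridised to Affymetrix Human U133 Plus 2.0 arrays after isolation with a Qiagen kit or TRIzol, per the labels' protocols. The sources used here do not give the isolation of each array, and it was not tested as a batch. The deposited table holds 1 log2 value per probe set, made with RMA in the affy package per the submitters' processing notes, with no version and no genome build given. Quantile normalization, a usual step of RMA, would remove a shift of all transcripts. Of 54675 probe sets 62 are controls, 41091 name 1 gene, 1801 name more than 1, and the annotation lists no gene for 11721. For 41037 of the probe sets naming 1 gene the symbol was taken from RefSeq by gene ID, whether or not it changed. Genes were represented by their brightest single-gene probe set and fitted with limma 3.58.1 in R 4.3.3 (lmFit, eBayes, two-sided, Benjamini-Hochberg over 19775 genes, residual df 4, prior df 2.68, unfiltered). Probe sets were fitted likewise over all 54613. Changes are cortistatin A minus DMSO with limma standard errors. The gene fit was also run on simulated data with independent normal values for each gene. Such data hold no effects shared by the genes of an array, and no result here rests on that run. No pair of arrays shared more than 678 identical values. The members, the lists (other KLF genes, SP factors, cofactors, regulators, targets, housekeeping and cell type markers) and the alternatives were chosen with earlier results of these data known. All members were named, and from each list those passing or else the 3 with the smallest p; CDKN1A, CTBP1, CTBP2, SIN3A, CCL5, ITGB7 and S1PR1 are exceptions. Promoters are RefSeq windows. The alternatives are given in the closing section.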

Additional observations from a re-analysis of the deposited data

How the results depend on the processing

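Of the 10 members 0 passed under each of 13 alternatives, and 1, KLF13, passed when dim genes were left out and with trend and robust variances. Members with an unadjusted limma p under 0.05 numbered 2 as reported, and 1 when probe sets were averaged, with a further quantile normalization and with all probe sets tested. The count of all genes called was 115 in the fit as reported. It was 0 with the replicate block, 76 with the mean of all probe sets, 321 with dim genes left out, 54 without the _x_at and _s_at types, 60 with housekeeping centring, 762 with trend and robust variances, 0 with the 3' to 5' index as covariate and 20 with all probe sets tested. Leaving out 1 array gave 0 to 4 genes. Of all probe sets 28 were called as reported, 0 with the replicate block, 62 with a further quantile normalization, 16 with housekeeping centring, 933 with trend and robust variances, 0 with the index and 0 without any 1 array. An unadjusted limma p under 0.05 was found for 2243 genes and 5026 probe sets with the block and 1997 genes and 4545 probe sets with the index, and without 1 array 1952 to 2342 genes and 4422 to 5493 probe sets. The causes were not tested.

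Signs turned without the _x_at and _s_at types for KLF2 (-0.0052), KLF13 (-0.117), KLF16 (0.075) and KLF5 (-0.060). For KLF13 this reads the brighter of 2 such probe sets, and the other stood at 0.43. They turned with the mean of all probe sets for KLF7 (0.034), KLF16 (0.010) and CREBBP (0.0050), and with the index for KLF7 (0.0051). Leaving out 1 array gave -0.078 to 0.152 for KLF2 and -0.055 to 0.019 for KLF7, the members whose sign turned there. KLF4, KLF9 and KLF10 have no probe set outside the _x_at and _s_at types and gave no value in that alternative. Same-numbered arrays deviated from their group means with r = -0.05, 0.009 and 0.016, so no shared deviation was seen. These values cannot settle whether same-numbered wells were handled together. With the replicate block the p of KLF13 was 0.2985 and that of THBD 0.177 (limma adjusted). Housekeeping centring used 20 of 25 listed genes, of which 0 passed as reported (median change -0.002), and moved the median of all genes by -0.028. The number of arrays and dim probe sets limit what could be detected. The beta-actin control alone gave a 3' minus 5' difference of 0.20, against 0.037 for all control transcripts.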
